A study of Mus musculus with 41 samples.

Results

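The sites described here are stretches of mouse chromatin that carried MLL3/4 in cultured epidermal cells without doxycycline (DOX), still carried it when either of 2 mutant forms of SOX9 was induced, and no longer had an MLL3/4 peak when wild-type SOX9 (WT-SOX9) was induced. They were chosen by a rule on peak lists: a peak of the list without DOX, mitochondrial DNA left out, that was overlapped by at least 1 bp by a peak with dTA-SOX9 and by a peak with dHMG-SOX9, and by no peak with WT-SOX9. The rule found 9887 of the 33975 sites of the list without DOX, or 29.1% (95% Wilson interval 28.6 to 29.6%). They made up 35.5% of the 27849 sites that had no peak with WT-SOX9 and 67.4% of the 14660 sites that had a peak with both mutants.

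The series holds 41 samples of CUT&RUN (CNR), an assay that releases and sequences the DNA around a chromatin protein with an antibody-tethered nuclease. The 4 MLL3/4 lists behind the rule came from cultured keratinocytes of male CD1 mice, with 2 samples in each group pooled into 1 list. The cells were epidermal stem cells (EpdSCs) that carried rtTA under the keratin 14 promoter (K14rtTA), so that DOX at 1 µg per ml switched on a MYC-tagged Sox9 placed behind a tetracycline-responsive element. That gene was wild type (TRE-myc-Sox9, WT-SOX9), lacked the transactivation domain (TRE-myc-Sox9noTA, dTA-SOX9) or lacked the DNA-binding HMG domain (TRE-myc-Sox9noHMG, dHMG-SOX9), each brought in by a lentivirus. The reference without DOX was the WT-SOX9 line alone, so that a difference between the mutant lines that DOX does not cause cannot be told apart from an effect of the mutant proteins. The other lists compared were MYC-tag CNR in the same 4 groups of cultured cells, and SOX9 and MLL3/4 CNR in EpdSCs sorted from back skin of K14rtTA; TRE-myc-Sox9 mice before DOX (D0, postnatal day 21) and after 1 week (W1, day 28) and 2 weeks of DOX (W2, day 35). SOX9 CNR was also made at W6 (day 63) and in grafted skin at W12, where a later time therefore also means older or grafted skin. As a check of the labelled cell type, the list without DOX had a peak within 1 kb of a start of 2 of 5 keratinocyte markers, Krt5 and Krt14, and of 1 of 13 markers of other skin cells, Pecam1. The WT-SOX9 list with DOX had 1 of 5 (Krt14, without Krt5) and 1 of 13, the dTA-SOX9 list 3 and 0, and the dHMG-SOX9 list 2 and 0, so that the label rests on few markers.

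MLL3 and MLL4 are large histone methyltransferases that place monomethylation on histone H3 lysine 4 at enhancers, the distal switches that give a cell its gene programme. In basal epidermis many enhancers are bound by TRP63 and by AP1, the dimers of FOS and JUN proteins that serve growth and stress signals. SOX9 is an HMG-box factor of hair follicle stem cells that binds its own short DNA word and is known to open closed chromatin, and its transactivation domain recruits cofactors.

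Each group had 1 pooled list, so no test between groups could be made. Shares are given with 95% Wilson intervals and differences between shares with 95% Newcombe intervals over sites. These cover counting error alone, and neighbouring sites are not independent. The lists were of very unequal length, 10543 peaks for WT-SOX9, 25948 for dTA-SOX9 and 23301 for dHMG-SOX9, and their depth is unknown. A shorter list loses more sites whatever the cause, and the part of list length in the loss was not tested. The labels of both WT-SOX9 samples with DOX name replicate 2 although their titles number them 1 and 2, and the median peak maximum was 9 fragments in the WT-SOX9 list, 13 in the list without DOX and 12 in each mutant list. When each list was cut to its 10543 peaks of highest total signal, WT-SOX9 lost 58.3% of the sites without DOX, dTA-SOX9 33.4% and dHMG-SOX9 27.2%, and 2815 sites, or 26.7%, followed the rule. In those lists of equal size, 650 sites were lost with dTA-SOX9 alone and 175 with dHMG-SOX9 alone.

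As examples, windows of 50 bases to each side of the MLL3/4 maximum of 10 sites were read from the + strand of GRCm38.p6 (mm10). In them 3 consensus words are in capitals on either strand: the AP1 word TGACTCA, the SOX word (CCATTGT or CCTTTGT or GCATTGT or GCTTTGT) and the GATA word (AGATAAC or AGATAAG). These 10 windows are not typical in their words, since 26.4% of all the sites lost only with WT-SOX9 held the AP1 word and 5.77% a SOX word. The first 4 carried the AP1 word. Of the 10 sites of highest total signal, only those near Rnf144a and Prkab1 held it. The site named for Rnf144a (chr12:25861149-25861249, intergenic, 449 kb from the nearest coding start) and the site near Prkab1 (chr5:116009498-116009598, within 1 kb of a non-coding start) were among the 10 of highest total signal. The sites in introns of Mark2 (chr19:7335817-7335917) and Ppp1r12b (chr1:134771518-134771618) were among the 5 highest that also lost their MLL3/4 peak in skin.
Rnf144a site: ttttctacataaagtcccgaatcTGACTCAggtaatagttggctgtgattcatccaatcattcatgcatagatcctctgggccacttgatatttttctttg
Prkab1 site: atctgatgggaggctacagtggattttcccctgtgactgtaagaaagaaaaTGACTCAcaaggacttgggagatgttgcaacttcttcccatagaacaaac
Mark2 site: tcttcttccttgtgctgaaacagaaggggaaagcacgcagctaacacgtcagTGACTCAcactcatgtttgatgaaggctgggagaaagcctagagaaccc
Ppp1r12b site: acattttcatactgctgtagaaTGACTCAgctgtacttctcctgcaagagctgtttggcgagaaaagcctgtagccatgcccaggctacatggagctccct

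The next 4 carried a SOX word and were picked after the values were seen, as the sites of high total signal in which that word occurred. They lay in introns of Myt1l (chr12:29749343-29749443) and Rab31 (chr17:65720042-65720142), 13.4 kb from the start of Pigt (chr2:164513539-164513639) and 45.9 kb from that of Abca12 (chr1:71461026-71461126). The Pigt and Abca12 sites held an AP1 word as well. All 4 had a MYC-tag peak with dTA-SOX9 and none with WT-SOX9, whereas a promoter site of Snai3 with a SOX word and a total signal of 13894, not shown, had neither.
Myt1l site: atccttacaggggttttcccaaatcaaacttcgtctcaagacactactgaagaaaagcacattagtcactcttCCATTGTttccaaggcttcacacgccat
Rab31 site: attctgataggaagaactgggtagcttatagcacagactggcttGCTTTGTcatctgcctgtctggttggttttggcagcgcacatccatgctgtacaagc
Pigt site: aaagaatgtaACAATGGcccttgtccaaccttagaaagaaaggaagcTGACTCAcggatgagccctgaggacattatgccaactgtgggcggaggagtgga
Abca12 site: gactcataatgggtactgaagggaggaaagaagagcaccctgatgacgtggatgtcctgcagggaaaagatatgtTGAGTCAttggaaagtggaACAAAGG

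The last pair lay on a MYC-tag peak of WT-SOX9, which was rare among these sites, and held none of the 3 words. One was an intergenic site 1.64 kb from a start of Mrtfa (chr15:81192912-81193012) and the other an intergenic site 226 kb from Wdr11 (chr7:129855124-129855224).
Mrtfa site: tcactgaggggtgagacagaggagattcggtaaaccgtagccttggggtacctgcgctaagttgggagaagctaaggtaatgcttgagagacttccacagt
Wdr11 site: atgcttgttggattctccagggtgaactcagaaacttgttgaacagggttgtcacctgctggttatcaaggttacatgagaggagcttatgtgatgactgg

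The sites lost only with WT-SOX9 were neither the strongest nor the weakest MLL3/4 sites of cells without DOX. These values come from the contrast that chose the sites and describe them without a test. Their median total signal (coverage summed over the peak) was 2643, with quartiles of 1722 and 4168, and the median maximum was 18 overlapping fragments. The 4773 sites with a peak in all 4 lists (kept in all) had a median of 5612 and a maximum of 31.0, and the 10006 sites without a peak in any DOX list (lost in all) 1139 and 10. In strength the chosen sites sat between these classes. Median width followed the same order, with 334, 431 and 253 bp. The share of sites that followed the rule was 6.54% in the lowest decile of total signal, 52.9% and 52.4% in the eighth and ninth, and 32.3% in the highest, where 65.2% of sites were kept in all. Loss of a peak with WT-SOX9 fell from 95.9% of sites in the lowest decile to 33.7% in the highest, and with dTA-SOX9 from 80.1% to 1.68%.

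**Figure D1:**
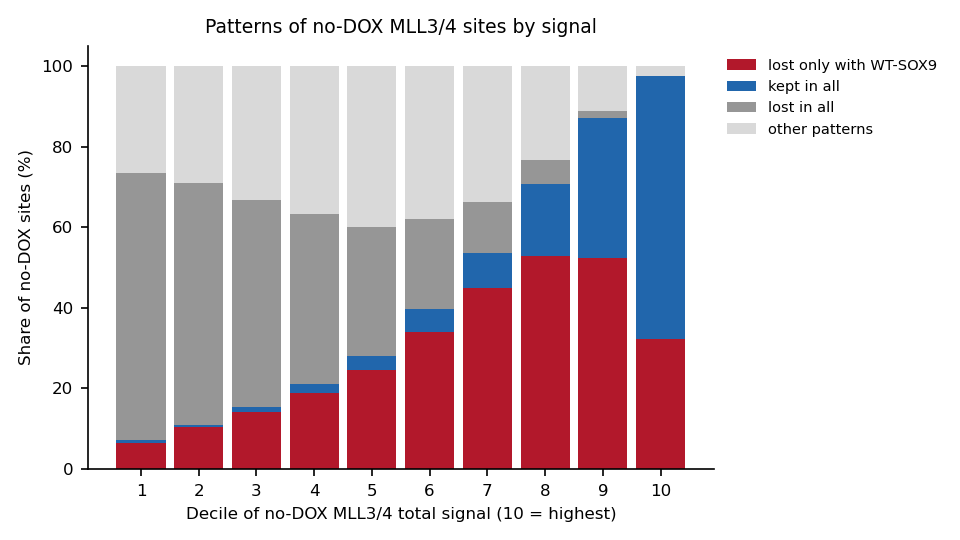
Share of the 33975 MLL3/4 sites without DOX (vertical axis, %) that followed each pattern of peaks with DOX, by decile of total signal without DOX (horizontal axis, 10 highest). Red is the share lost only with WT-SOX9, which is largest in the eighth decile at 52.9%, while sites kept in all (blue) reach 65.2% in the highest decile.

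In the mutant lists the same sites stood in the upper middle. Ranked by total signal within each list, their median percentile was 68.3 in the list without DOX, 61.8 in that of dTA-SOX9 and 57.4 in that of dHMG-SOX9, against 88.9, 81.1 and 84.1 for sites kept in all. The list of replicate 1 alone without DOX had a peak at 98.3% of them and at 93.0% of all sites. The rule turns on a single base of overlap, and few sites stood near that limit. From the sites to the nearest MLL3/4 peak with WT-SOX9 the median gap was 33.7 kb, 65 sites had one within 100 bp and 730 (7.38%) within 1 kb. Just inside the limit was a site near Gtf3c6 (chr10:40263453-40263707, total signal 2497) that abutted an MLL3/4 peak with WT-SOX9, with 0 bp between them, and just outside a kept site near Plxna1 (chr6:89422686-89422963, total signal 2127) that overlapped one by 42 bp.

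The 10 sites of highest total signal ran from 24936 near Prkab1, a subunit of the energy sensor AMPK, down to 20029 near Tlk1, a chromatin kinase. The Prkab1 site stood at percentile 99.7 in the list without DOX, 98.3 in that of dTA-SOX9 and 99.3 in that of dHMG-SOX9, and the nearest MLL3/4 peak with WT-SOX9 was 691 kb away. An intronic site of Gfpt1, which makes the first step of the hexosamine pathway, had a total of 24789 and percentiles of 99.7, 99.6 and 99.1. The intergenic site beyond Mmadhc (chr2:50687165-50688135) had 23710 and percentiles of 99.7, 97.1 and 97.9. The others were near Sox9, Rbfa, Basp1, Phlda1, Cpeb3 and Rnf144a, with totals between 20659 and 24363 and percentiles of at least 92.3 in every list that had a peak. Each was thus among the stronger peaks of the 3 lists in which the rule asked for one. In skin, 8 of the 10 lay on a D0 MLL3/4 peak, the exceptions being those near Basp1 and Rnf144a, and 7 lay on a MYC-tag peak of dTA-SOX9.

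The site at Sox9 itself needs a separate word. It lay 0.362 kb from the start of the gene (chr11:112782586-112783047), had a total of 24363 and was 1 of 3 sites without DOX in the gene and 50 kb to each side, all 3 of which followed the rule. All 3 also lay on MYC-tag peaks of WT-SOX9 cells with DOX, and the locus held 3 MYC-tag peaks without DOX. The lentiviral vectors carry Sox9 coding sequence, so fragments of vector and of the gene cannot be told apart there. Of the 25 sites whose nearest coding start was Sox9, 1 was at a promoter, 12 had a D0 peak in skin and 10 a MYC-tag peak with dTA-SOX9.

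Most of these sites were distal, as were sites without DOX in general, of which 21.2% lay at promoters. Of the 9887, 2084 (21.1%, 20.3 to 21.9%) lay within 1 kb of an annotated start, 41.7% in introns, 34.5% between genes and 2.67% in exons. Sites kept in all were at promoters slightly more often, in 23.7% (difference of -2.58 points, interval -4.04 to -1.14, same sign on 15 of 20 chromosomes, and -6.83 points in lists of equal size), and sites lost in all in 20.2%. The median GC content around the maximum was 47.8%, against 47.5% in kept sites and 46.5% in sites lost in all. Across autosomes the share of sites that followed the rule ran from 25.5% on chromosome 13 to 31.7% on chromosome 11, and it was 21% on X, where 136 of 649 sites did.

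Of the words searched, the AP1 word TGACTCA was the commonest at these sites. It occurred within 50 bp of the maximum in 26.4% of the sites lost only with WT-SOX9, against 2.22% of windows of the same length 1 kb away, a ratio of 11.9. The ratio in sites kept in all was 12. They had it in 21.3%, sites lost in all in 20% and all sites without DOX in 22.7%. The difference from kept sites was 5.13 points (3.67 to 6.57), with the same sign on 18 of 20 chromosomes, and 5.01 points after kept sites were weighted to the same distribution over deciles of total signal. It was found away from promoters, with 29.4% against 24.3% in kept sites, and at promoters, with 15.1% against 11.7%. Within 10 bp of the maximum the word stood in 7.64% of the sites, against 5.91% of kept sites and 5.59% of sites lost in all.

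The SOX word was not detectably more frequent at these sites than nearby. It occurred in 5.77% of the windows, and in 6.02% of the control windows 1 kb away (difference of -0.253 points, -0.811 to 0.323). All sites without DOX had it in 6.64% and kept sites in 7.86%, a difference of -2.09 points (-3.00 to -1.22) that held on 16 of 20 chromosomes and became -4.29 points with the weighting by signal, but -0.736 points (-1.97 to 0.509) in lists of equal size. The TEAD word GGAATGT, of the factors that YAP and TAZ act through, stood in 3.45% of the sites against 5.32% of kept sites (-1.87 points, -2.63 to -1.16) and 3.72% of all sites, with 1.34% in control windows. Among the other words, the intervals of the RUNX, ETS and GRHL differences did not include 0. The GATA word was in 2.82% against 2.28% of kept sites (0.538 points, -0.0188 to 1.06), the RUNX word AACCACA in 3.65% against 4.34% (-0.686 points, -1.39 to -0.0190, and -1.48 with the weighting), the AP2 word GCCNNNGGC in 4.21% against 4.59%, the GC box CCGCCCC in 2.92% against 2.83% and the ETS word CCGGAAG in 1.22% against 0.838% (0.386 points, 0.0251 to 0.710, and 0.0540 with the weighting). The CREB/ATF word TGACGTCA, which shares a half-site with that of AP1, stood in 0.587%, the GRHL word AACCGGTT in 0.314% against 0.649% (-0.336 points, -0.622 to -0.104), and the CTCF and TP63 words in 0.233% and 0.0809%. A word is a match of letters and not a bound site.

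**Figure D2:**
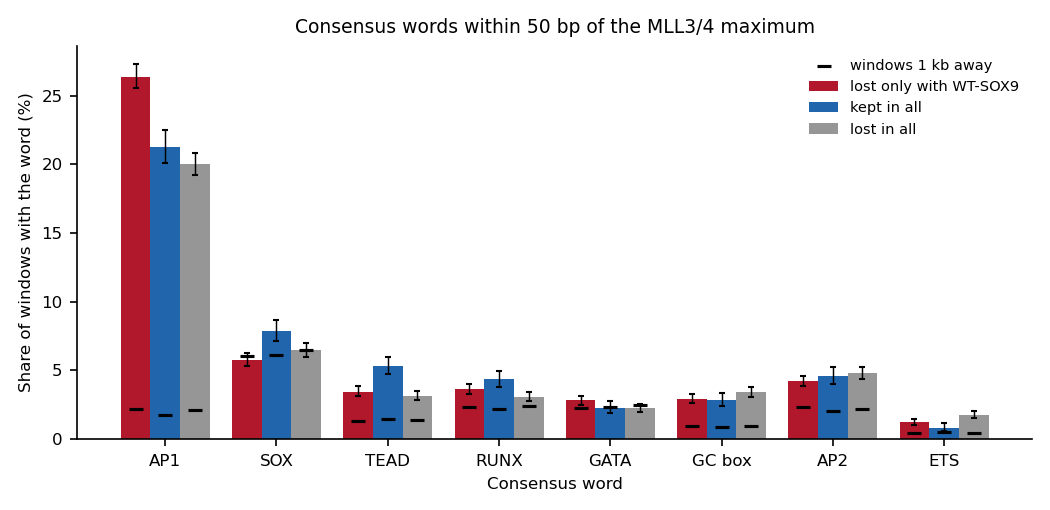
Share of windows of 50 bp to each side of the MLL3/4 maximum (vertical axis, %) that held each consensus word (horizontal axis) in sites lost only with WT-SOX9 (red), kept in all (blue) and lost in all (grey), with 95% Wilson intervals over sites. Black dashes give windows 1 kb away, at 2.22% for AP1 in the red class, where the site windows stand at 26.4%, and at 6.02% for SOX, where they stand at 5.77%.

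The induced WT-SOX9 was seldom found at the sites that lost MLL3/4 with it. A MYC-tag peak of WT-SOX9 with DOX overlapped 292 of 9887 sites (2.95%, 2.64 to 3.31%), against 21.4% of sites kept in all, a difference of -18.5 points (-19.7 to -17.3) with the same sign on all 20 chromosomes. Weighting kept sites by total signal gave -20.3 points. Sites lost in all overlapped one in 0.760%, so that the chosen sites stood 2.19 points (1.83 to 2.58) above them, on 19 of 20 chromosomes, and all sites without DOX in 5.28%. Moved by 10 kb, the same sites overlapped a MYC-tag peak of WT-SOX9 in 0.531%. The list without DOX, which has no induced protein to detect, overlapped 5.46% of the sites and 4.47% of all sites without DOX, although it had 2242 peaks against 6671. When its sites were left out, 2.16% of the rest lay on WT-SOX9 peaks, against 4.37% of all remaining sites without DOX. Seen from the other list, 4.54% of WT-SOX9 peaks touched a site lost only with WT-SOX9 and 16.1% a site kept in all. The median distance to the nearest MYC-tag peak of WT-SOX9 was 73.9 kb, against 28.2 kb for kept sites and 84.4 kb for sites lost in all, and 15.1% of the sites had one within 10 kb, against 36.7% and 12.3%.

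By contrast, dTA-SOX9 was found at many of them. Its MYC-tag peaks overlapped 3102 sites (31.4%, 30.5 to 32.3%), 53.5% of sites kept in all, 5% of sites lost in all and 22.5% of all sites without DOX, and 1.17% of the sites when moved by 10 kb. The difference from kept sites was -22.1 points (-23.8 to -20.4), and -14.2 points in lists of equal size. Of all 11341 peaks of dTA-SOX9, 27.7% touched a site lost only with WT-SOX9 and 23.3% a site kept in all. dHMG-SOX9, which cannot bind DNA through its HMG domain, overlapped 7.50% of the sites with 3980 peaks, against 17.4% of kept sites, 1.21% of sites lost in all and 5.80% of all sites without DOX. In 2578 sites (26.1%) dTA-SOX9 was the single one of the 4 MYC-tag lists with a peak, against 28.2% of kept sites, 4.69% of sites lost in all and 16.7% of all sites without DOX. The list of dTA-SOX9 is the longest of the 4, and how much of its share is due to depth is unknown. Sites on dTA-SOX9 peaks differed in kind from the other 6785: 11.2% were at promoters against 25.6% (difference of -14.4 points, -15.9 to -12.9), 30.8% held the AP1 word against 24.4% (6.37 points, 4.46 to 8.30), 8.03% held the SOX word against 4.73%, and 38.8% had a D0 peak in skin against 52.4%. Their median total signal was 3142 against 2469.

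**Figure D3:**
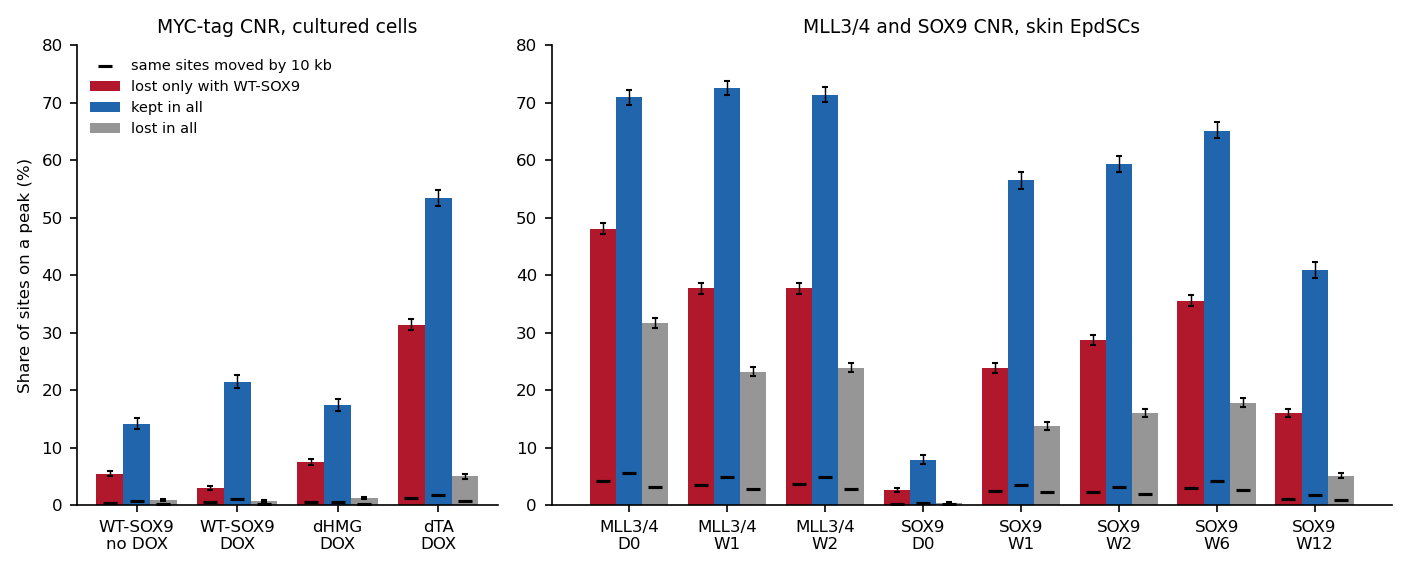
Share of sites (vertical axis, %) overlapped by a peak of each MYC-tag list in culture (left) and each MLL3/4 or SOX9 list in skin (right), for sites lost only with WT-SOX9 (red), kept in all (blue) and lost in all (grey), with 95% Wilson intervals over sites. Black dashes are the same sites moved by 10 kb. Red bars reach 2.95% for WT-SOX9 with DOX and 31.4% for dTA-SOX9, and 48.1% for MLL3/4 at D0.

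The 5 sites of highest total signal on a WT-SOX9 MYC-tag peak were the Sox9 start, the sites near Mrtfa (a coactivator of serum response factor) and Wdr11, and 2 in Sfi1, a centrosome gene. Of the 292 such sites, 20 had Sfi1 as their nearest coding start. The Sfi1 region of chromosome 11 is multicopy in mouse: a run of 34 sites, the longest of all, filled 81.0 kb there, 33 of them on D0 peaks in skin, and 11 more sites stood in 36.3 kb near Gm10717 on chromosome 9. Reads of such copies cannot be placed on 1 of them. Without both regions, 9841 sites followed the rule and 2.64% lay on WT-SOX9 peaks.

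In sorted EpdSCs before DOX, 48.1% of the sites (47.1 to 49.1%) had an MLL3/4 peak, against 71.0% of sites kept in all, 31.7% of sites lost in all and 44.6% of all sites without DOX. The difference from kept sites, -22.8 points (-24.4 to -21.2), shrank to -9.90 points when kept sites were weighted to the same signal in culture. Sites lost in all, weighted in the same way, had a D0 peak in 46.6%, near the share of the chosen sites. Moved by 10 kb, the chosen sites overlapped a D0 peak in 4.20%. For 4464 of them (45.2%) none of the 3 skin lists had an MLL3/4 peak. That share was 18.9% in sites kept in all, 60.1% in sites lost in all (46.8% with the weighting) and 46.9% in all sites without DOX. Of the chosen sites, 2737 (27.7%) had a peak at D0, W1 and W2, against 60.2% of kept sites and 26.6% of all sites without DOX. Sites at promoters were on a D0 peak in 73.1% of cases, those away from promoters in 41.5%.

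During induction in skin, the sites lost only with WT-SOX9 in culture lost their peak more often than sites kept in culture. Of the 4758 on a D0 peak, 1480 (31.1%, 29.8 to 32.4%) had none at W1, against 10% of kept sites, a difference of 21.1 points (19.4 to 22.7) with the same sign on all 20 chromosomes and 17.8 points with the weighting. At W2 the shares were 31.0% and 10.4%, and 933 sites (19.6%) had a peak at neither time, against 5.17% of kept sites (14.4 points, 13.1 to 15.8). Over all sites without DOX on a D0 peak that share was also 19.6%, and over all D0 peaks 37.8%. Sites lost in all in culture had no W1 peak in 43.4%, all 15160 sites without DOX on a D0 peak in 30.3%, and all 37072 D0 peaks in 48.5%. The share at the chosen sites was thus close to that over all sites without DOX. Both weeks are compared with 1 D0 list, and the W1 and W2 lists, with 31539 and 29281 peaks, were shorter than that list.

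**Figure D4:**
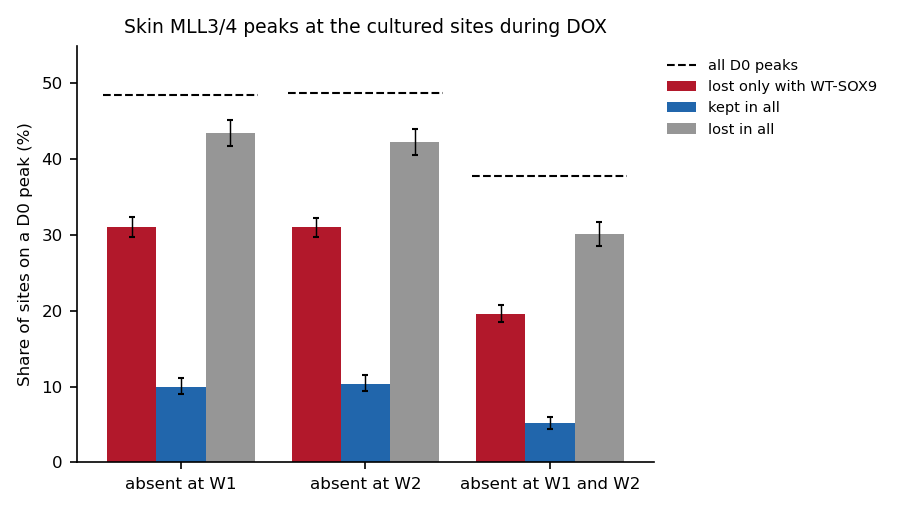
Share of the sites on a D0 MLL3/4 peak in skin (vertical axis, %) that had no MLL3/4 peak at W1, at W2 or at both (horizontal axis), for sites lost only with WT-SOX9 in culture (red), kept in all (blue) and lost in all (grey), with 95% Wilson intervals over sites. The dashed line is the share of all D0 peaks, 48.5% at W1, and the red bar stands at 31.1%.

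SOX9 peaks overlapped 2.64% of the sites lost only with WT-SOX9 at D0, 23.8% a week later, 28.7% at W2, 35.6% by W6 and 16.0% in W12 grafts, and 7.90%, 56.5%, 59.4%, 65.2% and 40.9% of kept sites. In sites lost in all the shares were 13.8% at W1 and 16.1% at W2, and over all sites without DOX 24.9% and 28.6%, close to those of the chosen sites. These lists held 792, 15651, 18657, 20579 and 9745 peaks in the same order of time. The W1 difference from kept sites was -32.7 points (-34.3 to -31.0) and -26.9 points with the weighting. That from sites lost in all was 10.1 points (8.98 to 11.1, same sign on 20 of 20 chromosomes) without the weighting. Weighted to the same signal in culture, sites lost in all had a W1 SOX9 peak in 24.5%, so that this difference was no longer seen. Of the 933 sites without MLL3/4 at W1 and W2, 6.75% (5.31 to 8.55%) had a SOX9 peak at W1, against 65.3% (63.4 to 67.0%) of the 2737 with MLL3/4 at all 3 times. At W6 the shares were 24.7% and 71.7%, and with SOX9 at any week 32.3% and 85.9%. Over all sites without DOX the shares at any week were 28.4% and 85.5%, near those of the chosen sites. MLL3/4 and SOX9 came from the same kind of sorted cells, and sites of strong MLL3/4 in culture were commoner among the latter, with a median total of 3310 against 2580. The AP1 word stood in 25% of the former and 23.9% of the latter, and the GATA word in 3.86% and 2.92%.

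Among the highest sites that lost MLL3/4 in skin as well were those near Dnase1l3, a secreted nuclease (total signal 16952), Mark2, a polarity kinase (14725), Ppp1r12b, a myosin phosphatase subunit (14163), and Wdr11 (13957). These 4 stood at percentile 98.5 or above without DOX, and between 93.3 and 99.3 in the mutant lists. The Mark2 and Ppp1r12b windows held the AP1 word. None of the 4 had a SOX9 peak in skin at any time, and the Wdr11 site had a MYC-tag peak of WT-SOX9.

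The sites were spread over 5196 genes by nearest coding start, 2999 of them with 1 site, and 27 genes had 10 or more. After Sfi1 (31 of 60 sites without DOX) and Sox9 (25 of 55), the genes with most were Myc, the growth regulator (14 of 52), Serp2 (14 of 26), Pard3, a polarity protein (14 of 37), Nedd4l, a ubiquitin ligase (14 of 38), Btbd3 (13 of 28), Smad3, the effector of TGFβ signals (13 of 20), Abca12, the lipid transporter of the skin barrier (12 of 18), and Foxp1 (12 of 43). Tcte2 (12 of 19), Gata3 (12 of 34) and Klf6 (12 of 40) had as many as Abca12 and Foxp1. Against the background of 29.1% over all sites, Smad3 and Abca12 stood at 65.0% and 66.7%, and Myc and Foxp1 at 26.9% and 27.9%. At Smad3 1 of 13 sites lay on a dTA-SOX9 peak and at Abca12 8 of 12, while none at either lay on a WT-SOX9 peak. Of the 12 at Abca12, 9 had a D0 peak in skin and 1 of those 9 had none at W1. Genes with many sites in the list have more chances to appear here, and no test was made.

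The loci named in the study, taken with 50 kb to each side, held few sites without DOX, and their counts are given as a description. Gata3, a master regulator of epidermis, had 0 of 3. It was the nearest coding start of 34 sites without DOX, of which 12, all farther out, followed the rule (35.3%, against 29.1% over all sites). Trp63 had 1 of 12, at a promoter, with a D0 peak and none at W1. Runx1 had 2 of 10, Krt5, the basal keratin, 2 of 11, Ctnnb1, which encodes β-catenin, 2 of 4, and Vim, the mesenchymal filament, 3 of 4. All 3 sites at Vim lay on dTA-SOX9 peaks and none on a WT-SOX9 peak.

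Around genes of known epidermal programmes the share of sites was close to the background of 29.1% for most of the 11 lists. Together the loci of the 140 listed genes held 317 such sites, 31.3% of their sites without DOX (28.5 to 34.2%), but 26.1% in lists of equal size, just under the background of 26.7% there. For epidermal transcription factors 52 of 177 sites (29.4%, 23.2 to 36.5%) followed the rule, with most at Dlx3 (7 of 11), and 5 of 20 at Grhl2. Keratins had 15 of 54 (27.8%), led by the wound keratin Krt17 (8 of 17), whose neighbourhood overlaps those of Krt16 and Krt14, and desmosome genes had 31 of 126 (24.6%), led by Pkp1 (8 of 28). Hemidesmosome and basement membrane genes had 52 of 155 (33.5%), led by Lama3 (13 of 29), a laminin chain, and Plec (7 of 14).

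In the deposited lists the EGFR pathway list stood highest, with 38 of 91 (41.8%, 32.2 to 52.0%), but at 31.9% (20.4 to 46.2%) in lists of equal size, where the background was 26.7%. Most of its sites were at the ligand genes Tgfa (9 of 19), Hbegf (6 of 13) and Epgn (6 of 13) and the receptor genes Egfr (7 of 18) and Erbb3 (6 of 10). The NOTCH list had 32 of 84 (38.1%, 28.4 to 48.8%), led by the receptor gene Notch2 (8 of 16) and the target gene Hes1 (5 of 13). In lists of equal size it stood at 44.8% (28.4 to 62.5%), above the EGFR list. The list of AP1 genes had 40 of 114 (35.1%, 26.9 to 44.2%), or 41.2% in lists of equal size, led by Junb (9 of 18), Maff (7 of 12) and Fosb (6 of 12). Housekeeping genes had 22 of 54 (40.7%, 28.7 to 54.0%), a share near that of the EGFR list, and 14.3% in lists of equal size. The lists of hair follicle stem cell genes (19 of 77), MLL3/4 and SWI/SNF genes (14 of 58) and mesenchymal and immune genes (9 of 38) stood between 23.7% and 24.7%. In lists of equal size 5 more lists moved, to 19.1% for epidermal transcription factors, 22.0% for hemidesmosome genes, 12.1% for desmosome genes, 39.1% for hair follicle stem cell genes and 50.0% for mesenchymal and immune genes, each on 10 to 68 sites.

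**Figure D5:**
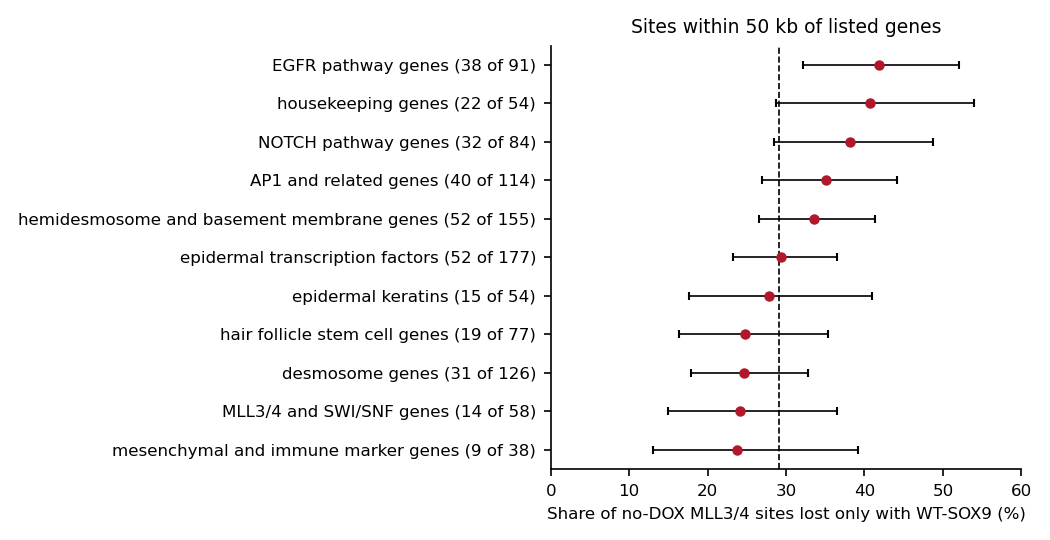
Share of the MLL3/4 sites without DOX near the genes of each list (within the gene and 50 kb to each side) that were lost only with WT-SOX9 (horizontal axis, %), with 95% Wilson intervals over sites and the counts in brackets. The dashed line is the share over all sites, 29.1%, and the interval of the EGFR list, 32.2 to 52.0%, is the one that does not include it.

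Many sites stood in groups. By a gap of at most about 12 kb between neighbours, 5591 sites were alone and 4296 formed 1725 runs, of which 66 had 5 or more sites. After the multicopy regions, the longest runs were 8 sites in 27.4 kb near Dlgap1 (chr17:70726777-70754129), with 7 on D0 peaks, 7 in 28.6 kb near Cdh1, the gene of E-cadherin (chr8:106604721-106633366), and 7 in 11.7 kb near Hook2 (chr8:84979407-84991102), next to Junb. Runs near Elmsan1 (7 of 7 sites without DOX, in 19.5 kb) and Lipe (7 of 9, in 23.3 kb) were as long by count. In the Cdh1 run 7 of 9 sites without DOX followed the rule and 2 were kept in all, 4 lay on D0 peaks and all 4 of those had a W1 peak. The Hook2 run held 4 promoter sites and no dTA-SOX9 peak.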

How the data were processed

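CNR was analysed in 32 of the 41 samples, as 17 deposited peak lists. A further 9 samples, with antibodies to JUN, ARID1a or BRG1, were not analysed here. Per the study's methods the authors used Skewer for trimming and Bowtie2 2.2.9 for alignment to mm10, processed reads with Picard and SAMtools 1.3.1, kept fragments of at most 120 bp, combined replicates and called peaks with SEACR (stringent, 0.01). The labels and methods also name deepTools 3.1.2. The deposited MLL3/4 lists give, for each peak, the total signal, a score summed over its bases, and the maximum as whole-number coverage, although the methods describe RPKM scaling. The lists of SOX9 and MYC-tag and that of replicate 1 without DOX were deposited by the authors on an RPKM scale, and the score kept in the SOX9 and MYC-tag lists was above 1800. Read depth is unknown, so totals were not compared between groups.

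Mitochondrial peaks were left out, 3 from each cultured MLL3/4 list and 4 from that of replicate 1. Peaks of 2 lists were matched by at least 1 bp. Coordinates are 1-based on mm10. Promoters were taken as 1 kb to each side of GENCODE vM21 starts, and genes were named by the nearest coding start. Words were sought on both strands within 50 bp of the maximum, and in windows 1 kb away. Named sites were the 10 of highest total signal, the 5 highest with a D0 peak and none at W1 or W2, and the 5 highest on a WT-SOX9 MYC-tag peak, and named genes those with most sites, or with 3 or more within a list. The 11 gene lists, with 140 genes, were those of epidermal transcription factors, keratins, desmosome, hemidesmosome and basement membrane, NOTCH pathway, EGFR pathway, AP1, hair follicle stem cells, MLL3/4 and SWI/SNF, housekeeping, and mesenchymal and immune markers. Members and lists were chosen with earlier results of these data known. Scripts used Python 3.11.15, pandas 2.3.3, numpy 2.4.6, scipy 1.17.1 and matplotlib 3.10.9 and were tested on simulated data. Some named sites and genes that met these rules are not reported here.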

Additional observations from a re-analysis of the deposited data

How the results depend on the processing

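Of 104 values under other settings, 78 stayed within the counting interval or, for counts, within 1.5 times, and 26 moved further. None of the differences between classes changed sign, but the share at listed genes went from above to below its background in lists of equal size. Values for single gene lists are not among the 104, and the 7 of them that moved stand in the report. Differences here are shares of sites lost only with WT-SOX9 minus shares of sites kept in all, in points. In lists of equal size 2815 sites followed the rule, by construction fewer, the promoter difference was -6.83, SOX word -0.736, dTA-SOX9 MYC-tag -14.2, D0 MLL3/4 -20.1, loss at W1 18, loss at W1 and W2 11.9, and 26.1% of sites at listed genes followed the rule. In the 50% of sites with highest total signal, dTA-SOX9 was -19.9, D0 -19.6, loss at W1 18.9 and W1 SOX9 -30.5. With no WT-SOX9 peak allowed within 1 kb, WT-SOX9 MYC-tag was -16.0, dTA-SOX9 -17.9, loss at W1 19.2 and W1 SOX9 -30.5. With kept sites weighted by signal, the SOX word was -4.29, WT-SOX9 MYC-tag -20.3, dTA-SOX9 -15.1, D0 -9.90, loss at W1 17.8, loss at W1 and W2 12.8 and W1 SOX9 -26.9. In windows of 100 bp to each side the AP1 word was 6.68 and the SOX word -3.95. Without sites on MYC-tag peaks of cells without DOX, WT-SOX9 MYC-tag was -16.6. This last setting, the one without multicopy regions, and the results for dTA-SOX9 and for loss at W1 and W2 were chosen after seeing the data. The cause of these movements was not tested.

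With the list of replicate 1 alone as the list without DOX, 10368 sites followed the rule, and the promoter difference was -2.70, AP1 word 5.28, SOX word -1.96, WT-SOX9 MYC-tag -18.4, dTA-SOX9 -22.0, D0 -23.2, loss at W1 20.9, loss at W1 and W2 14.4 and W1 SOX9 -32.8. No other replicate could be left out, and no spread between replicates is known. No paired analysis was possible because replicates were pooled into 1 list per group. A missing peak can be a site below the caller's limit, and depth, which would set that limit, is unknown.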
